A study of Mus musculus with 96 samples.

Results

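Organic anion transporters carry negatively charged drugs, toxins and metabolites across the membranes of the proximal tubule. The 9 genes described here were chosen by symbol: Slc22a6, Slc22a8, Slc22a7, Slc22a13, Slc22a19, Slc22a30, Slco1a1, Slco1a6 and Slco4c1, out of 54532 genes in the table. In the proximal cell, uptake from the blood side by Slc22a6 (Oat1) and Slc22a8 (Oat3) is driven by exchange for a dicarboxylate, which sodium-coupled carriers bring into the cell, and the anion then leaves into the lumen through exporters of the brush border. Oat1, Oat3 and Slco4c1 (Oatp4c1) are known as basolateral proteins. Slc22a7 (Oat2), Slc22a13 (Oat10), Slc22a19 (Oat5) and Slco1a1 (Oatp1a1) have been placed at the brush border in rodent kidney, so the name "basolateral" does not cover all 9, and RNA does not report the side of a membrane. Several of these genes are known to differ between the sexes in rodent kidney.

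RNA was measured in kidney pieces dissected by hand from male C57BL/6 mice of 6 to 8 weeks on normal chow, with no treatment in any group. The groups were the glomerulus (GL), the early convoluted part of the proximal tubule (PTS1), its straight part within the cortex (PTS2) and its end in the outer stripe (PTS3). The others were the descending thin limb of short loops (DTL1), that of long loops in outer (DTL2) and inner medulla (DTL3), the ascending thin limb (ATL), and the thick limb in medulla (MTAL) and cortex (CTAL). Beyond these lay DCT and CNT, the distal convoluted and connecting tubules, and the parts of the collecting duct called CCD (cortex), OMCD (outer medulla) and IMCD (inner medulla). The 93 pieces came from 53 mice, with 5 mice in PTS2, CTAL and CCD, 4 in ATL and OMCD and 3 in each of the other groups. Values are in TPM, which scales each transcript for its length and each sample to 1 total, so levels of different genes can be compared but sequencing depth is unknown. Pieces of 1 mouse were averaged, means are given ± SD over mice, and log2 differences are on the log2(TPM + 1) scale, which understates the change of low genes. In such bulk samples, fewer cells of a type and less RNA per cell cannot be told apart.

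The labels of the proximal groups were checked against their markers. Slc5a2 and Slc34a3, transporters of the early convolution, summed to between 2781 and 3539 TPM per mouse in PTS1, at most 2.11 TPM in PTS2 and 0 in PTS3. Of the 3 markers of the proximal end, Cyp7b1 was at 401 TPM in PTS2 and 1068 TPM in PTS3. Akr1c18 was also lower in PTS2 (PTS2 minus PTS3 log2 difference -2.29, SE 0.35), with 956 TPM in PTS3. Slc7a13, in contrast, had 2045 TPM in PTS2 and 1502 TPM in PTS3. Odorant and vomeronasal receptor genes, which serve smell and pheromone sensing, summed to between 2689 and 4286 TPM in DTL1, against 159 to 297 TPM in PTS1, 4.45 to 9.56 TPM in PTS2 and 8.53 to 15.3 TPM in PTS3. Endothelial markers summed to between 2812 and 3733 TPM in DTL1 and to at most 135 TPM in any proximal mouse. Both were also high in GL, with 1185 to 2646 TPM of the receptor genes and 3081 to 3112 TPM of the endothelial markers, and the receptor genes reached 1462 TPM in DTL3 and 2646 TPM in ATL. They were 892.5 to 1117 TPM in DTL2 and 394.6 to 851.9 TPM in OMCD.

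Slc22a30, Slc22a8 and Slc22a6 are consecutive protein-coding genes on mouse chromosome 19 in RefSeq (GRCm38.p6), and each had its highest mean in a different part of the proximal tubule: PTS3, PTS1 and PTS2, in that order. Their promoters are shown because these neighbours differed so much in where they were high. Each run spans the 250 bases before and 50 bases after the annotated start, 5′ to 3′ on the gene's strand, at chr19:8405056-8405355 (minus strand) for Slc22a30, chr19:8592932-8593231 (plus strand) for Slc22a8 and chr19:8617746-8618045 (plus strand) for Slc22a6. Capitals mark CAAAGT, the core of the HNF4 site, on either strand.
Slc22a30: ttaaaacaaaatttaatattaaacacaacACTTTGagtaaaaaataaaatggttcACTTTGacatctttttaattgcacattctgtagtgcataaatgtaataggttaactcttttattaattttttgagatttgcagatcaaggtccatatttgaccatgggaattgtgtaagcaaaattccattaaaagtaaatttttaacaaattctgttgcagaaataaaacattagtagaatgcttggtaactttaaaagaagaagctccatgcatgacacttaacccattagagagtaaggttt
Slc22a8: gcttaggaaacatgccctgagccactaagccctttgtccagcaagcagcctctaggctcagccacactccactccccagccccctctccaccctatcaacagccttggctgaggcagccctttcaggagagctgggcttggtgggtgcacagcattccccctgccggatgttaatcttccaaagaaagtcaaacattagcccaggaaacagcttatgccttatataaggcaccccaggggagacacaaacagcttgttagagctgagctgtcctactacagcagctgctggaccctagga
Slc22a6: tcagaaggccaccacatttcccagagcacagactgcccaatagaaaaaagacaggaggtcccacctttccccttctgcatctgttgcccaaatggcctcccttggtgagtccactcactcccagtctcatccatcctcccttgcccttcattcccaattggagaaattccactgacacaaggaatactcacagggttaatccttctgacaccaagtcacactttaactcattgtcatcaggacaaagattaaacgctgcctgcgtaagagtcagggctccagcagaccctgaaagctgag
CAAAGT was found in 3 of 8 member promoters, in 2 places each in Slc22a30 (bases -221 to -216 and -195 to -190, the first transcribed base being 0) and Slc22a19 and in 1 place in Slco1a6, and in 14.4% of 32851 mouse promoters of the same length. It has no match in the windows of Slc22a8 and Slc22a6. A longer word for the HNF4 site had no match in the 8 promoters (0 of 8) and is held by 0.475% of all promoters. TATAAA was found in 2 of 8, Slco1a1 and Slc22a13, and in 13.6% of all. A match in letters is not a bound site, and no promoter sequence was used for Slc22a7.

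Outside the proximal tubule the transcripts were scarce. Averaged over the proximal groups, all 9 exceeded the mean of the other 11 tubule groups by limma with Benjamini-Hochberg adjustment over 33793 genes (adjusted p under 0.05 and a log2 difference of at least 1), where 23.8% of genes were called, 4.02% higher and 19.8% lower. The differences ran from 2.07 (SE 0.11, adjusted p 3.33e-21, limma; 1.37 with a pseudocount of 5) for Slco4c1 to 6.51 (SE 0.19, adjusted p 5.79e-31) for Slc22a7, with a median of 5.03 over the 9 genes and -0.41 over all genes tested. That median of all genes moved to -0.20 under median ratio rescaling and -0.04 under quantile normalization. The F-test among the 15 groups called 9 of 9, but it also called 93.9% of all genes. The proximal groups held between 94.7% (Slc22a19) and 99.0% (Slc22a7) of the sum of the 15 group means for the 8 genes other than Slco4c1, and 67.8% for Slco4c1.

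**Figure D1:**
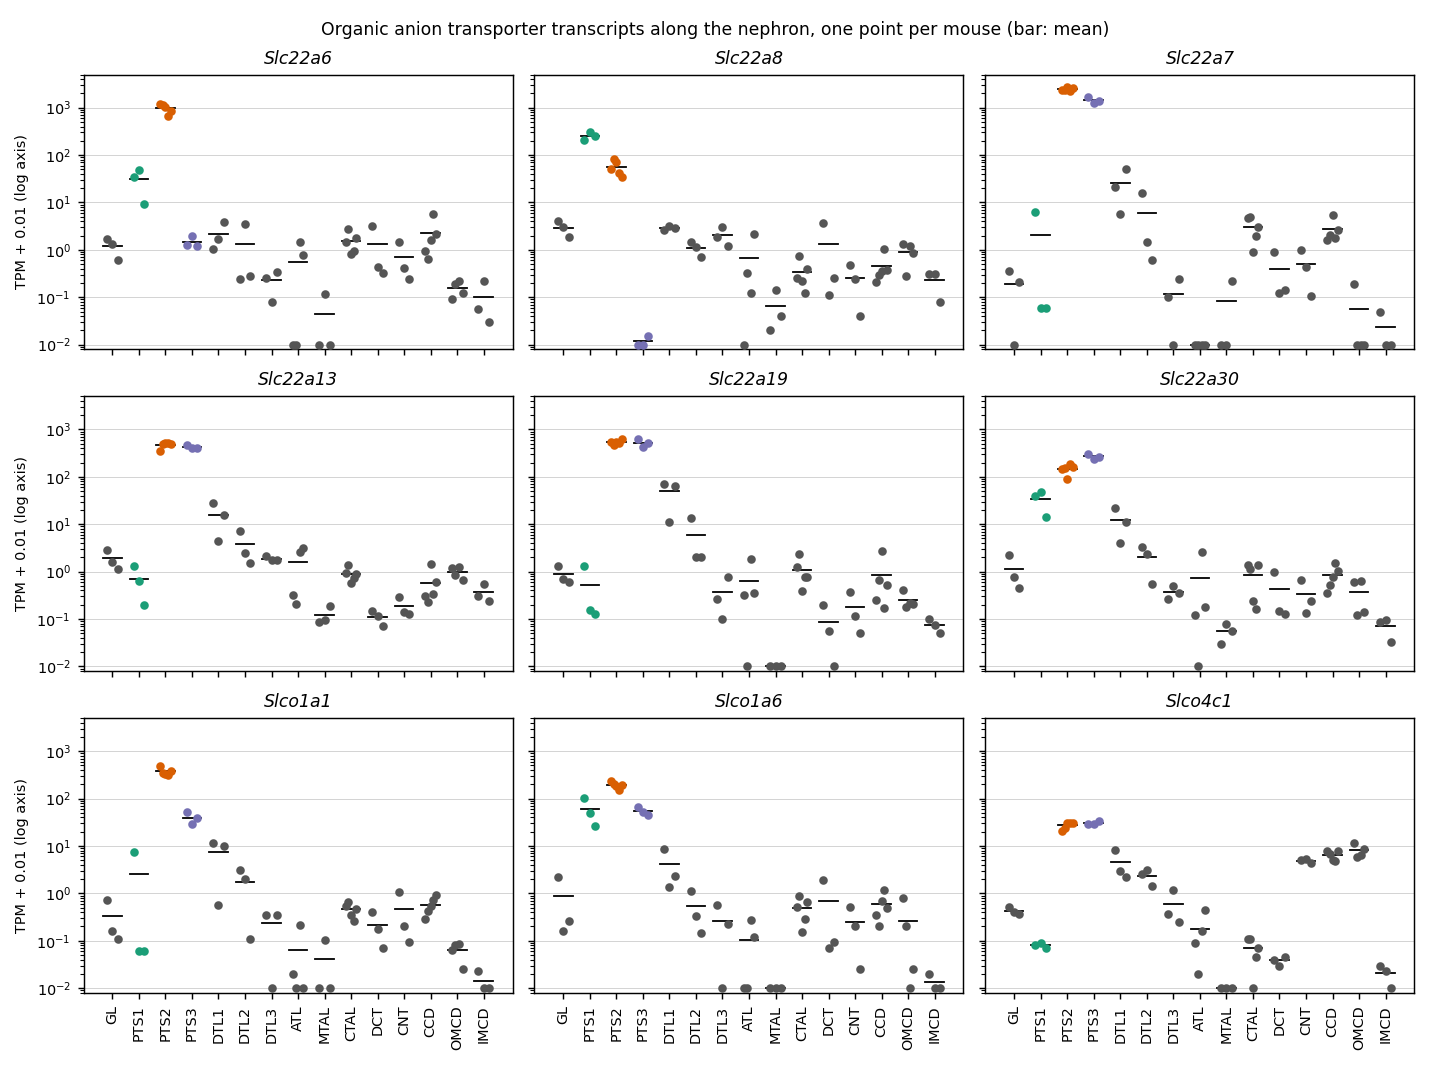
TPM plus 0.01 on a log axis for the 9 transporters in 15 groups along the nephron. Each point is a mouse and each bar a group mean; green is PTS1, orange PTS2 and purple PTS3. Each gene has its highest level in a proximal group, Slc22a8 is lower in PTS3 than in DTL1, and Slco4c1 is present again in CNT, CCD and OMCD.

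The whole set differed between the parts of the proximal tubule in amount and in make-up. Summed over the 9 genes, PTS1 held 389 ± 77 TPM (n = 3, 307 to 459 TPM), PTS2 5259 ± 343 TPM (n = 5, 4679 to 5579 TPM) and PTS3 2802 ± 385 TPM (n = 3, 2463 to 3221 TPM). The 3 parts did not overlap in this sum. Slc22a8 made up 67.6 ± 16.3% of the PTS1 sum, followed by Slco1a6 at 15.1 ± 9.4%, Slc22a30 at 8.41 ± 3.37% and Slc22a6 at 7.45 ± 3.89%. In PTS2, Slc22a7 came first at 46.9 ± 2.4%, then Slc22a6 at 18.6 ± 3.3%, Slc22a19 at 10.4 ± 1.1%, Slc22a13 at 8.96 ± 1.63% and Slco1a1 at 7.12 ± 1.20%. Slc22a7 also led in PTS3 at 52.1 ± 0.3%, ahead of Slc22a19 at 18.6 ± 1.2%, Slc22a13 at 15.2 ± 1.1% and Slc22a30 at 9.62 ± 0.26%. The leading transcript thus passed from Slc22a8 in the convolution to Slc22a7 in both straight parts.

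**Figure D2:**
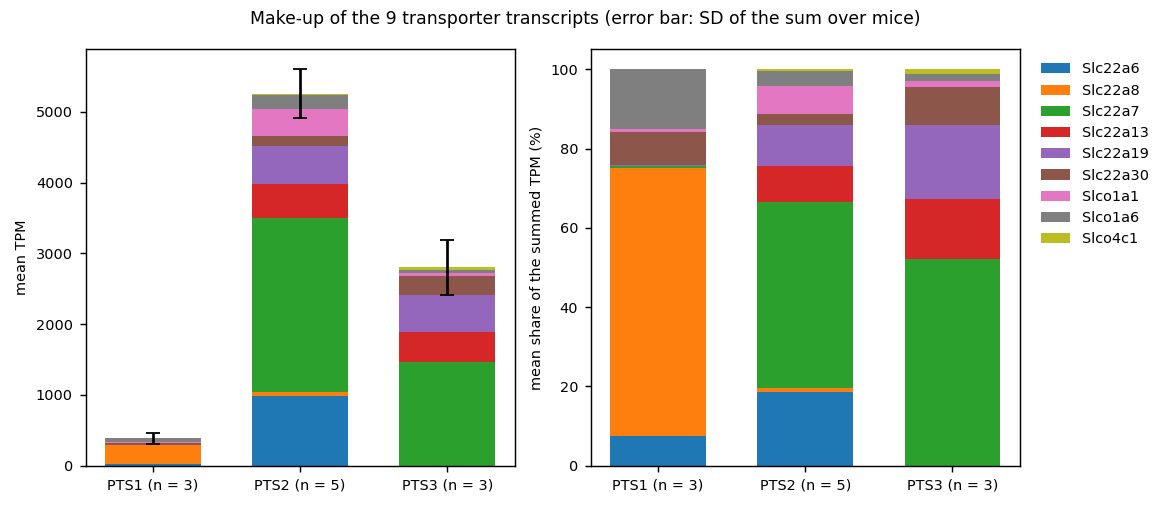
Stacked mean TPM (left) and mean share of the summed TPM in percent (right) of the 9 transporters in PTS1, PTS2 and PTS3; error bars on the left are the SD of the sum over mice. Slc22a8 fills most of the PTS1 bar, and Slc22a7 is the largest share in PTS2 and PTS3.

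Between PTS1 and PTS2, limma called all 9 genes: 1 higher in PTS1 (Slc22a8) and 8 lower, against 9.57% of all genes called, 4.46% higher and 5.1% lower. The median log2 difference was -5.20 over the 9 genes and 0.15 over all genes, and the latter was 0.23 under median ratio rescaling and 0.00 under quantile normalization. Between PTS2 and PTS3, 4 were higher in PTS2 (Slc22a6, Slc22a8, Slco1a1 and Slco1a6), none was lower (0 of 9) and 5 were not called, where 4.7% of all genes were called, 3.94% higher and 0.755% lower. Between PTS1 and PTS3, 2 were higher in PTS1 (Slc22a6 and Slc22a8), 6 were lower and Slco1a6 was not called, where 10.1% of all genes were called, 6.14% higher and 3.97% lower. A single highest group that exceeded every other group was called for 4 of 9 (PTS2 for Slc22a6, Slco1a1 and Slco1a6, PTS1 for Slc22a8), where 8.8% of all genes had 1 and 0.544% had PTS1, 0.257% PTS2 and 0.101% PTS3. These comparisons share mice, so each stands on its own values only. The mice did not overlap for 9 of 9 genes between PTS1 and PTS2 (54.4% of all genes), for 6 of 9 between PTS2 and PTS3 (21.3%) and for 8 of 9 between PTS1 and PTS3 (54.1%). The share of all calls that were higher in PTS1 than in PTS2 was 46.6%, and it was 61.6% under median ratio rescaling and 48.7% under quantile normalization. For PTS2 against PTS3 it was 83.9%, 69.2% and 63.4% in the same order, and for PTS1 against PTS3 60.7%, 64.2% and 48.6%. For the proximal groups against the other tubule it was 16.9%, 49.3% and 52.7%. With a pseudocount of 0.1 the shares were 77.3% for PTS1 against PTS2, 86.2% for PTS2 against PTS3 and 82.3% for PTS1 against PTS3, and with a pseudocount of 5 they were 36.3%, 86.9% and 52.3%.

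**Figure D3:**
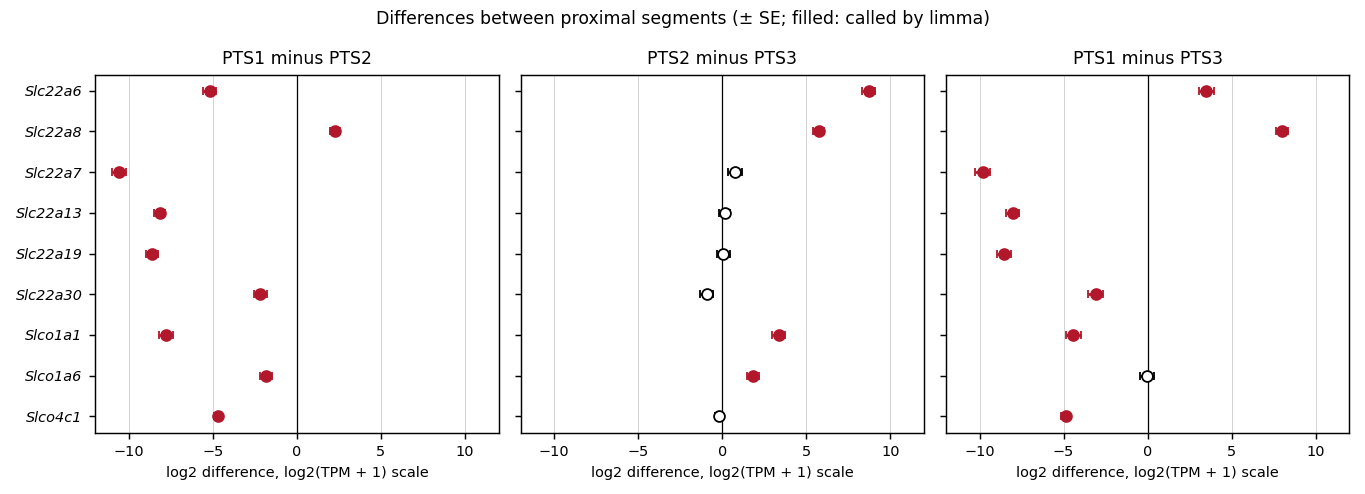
Log2 difference on the log2(TPM + 1) scale for each transporter between PTS1 and PTS2, PTS2 and PTS3, and PTS1 and PTS3, with its SE. Filled red points were called by limma (adjusted p under 0.05 and a log2 difference of at least 1) and open points were not; only Slc22a8 lies to the right in the PTS1 minus PTS2 panel.

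Slc22a6 (ENSMUSG00000024650) encodes Oat1, the uptake carrier classically measured with p-aminohippurate. In PTS2 it was at 1183, 1139, 1032, 683 and 866 TPM in the 5 mice, in PTS1 at 35.1, 48.3 and 9.42 TPM, and in PTS3 at 1.27, 1.91 and 1.18 TPM. The PTS2 mice were all above every PTS1 mouse, and all PTS1 mice above every PTS3 mouse. The difference between PTS2 and PTS3 was 8.70 (SE 0.40, adjusted p 3.49e-21, limma), and that between PTS1 and PTS3 was 3.50 (SE 0.45, adjusted p 2.84e-08), or 2.27 with a pseudocount of 5. PTS2 exceeded every other group (smallest margin 5.20 over PTS1, limma intersection-union adjusted p 8.95e-13), which 0.257% of all genes did for PTS2. After PTS1 the next levels were those of CCD (2.22 ± 2.06 TPM), DTL1 (2.19 ± 1.5 TPM) and CTAL (1.56 ± 0.79 TPM), whose mice overlapped with each other and with PTS3. PTS3 mouse 3 had 2.31 TPM in 1 piece and 0.04 TPM in the other.

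Slc22a8 (ENSMUSG00000063796) encodes Oat3, which takes up a broader range of anions such as estrone sulfate. It stood at 205, 311 and 257 TPM in the PTS1 mice and at 51.8, 82.3, 72.1, 41.6 and 34.2 TPM in the PTS2 mice. In PTS3 it was listed at 0 in 2 mice and at 0.005 TPM in the other. The order of Oat3 across the 3 parts was therefore not that of Oat1, and no group overlapped with another. PTS2 exceeded PTS3 by 5.73 (SE 0.32, adjusted p 2.08e-18, limma), or by 9.01 and 3.52 with pseudocounts of 0.1 and 5. PTS1 exceeded PTS2 by 2.26 (SE 0.32, adjusted p 2.02e-07, limma) and every other group by at least this margin (intersection-union adjusted p 1.56e-06, a call made for 0.544% of all genes in PTS1). With a pseudocount of 0.1 in place of 1 the second call was lost (2.28, limma adjusted p 0.146). GL had 2.95 ± 1.08 TPM, DTL1 2.85 ± 0.30 TPM and DTL3 2.02 ± 0.89 TPM, all above PTS3. The summed receptor genes were 1185 to 2646 TPM in GL, 2689 to 4286 TPM in DTL1 and 1383 to 1462 TPM in DTL3, against 8.53 to 15.3 TPM in PTS3, and their part in these levels was not tested.

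The balance of the neighbours Slc22a6 and Slc22a8 turned over between the first 2 parts. The ratio of Slc22a6 to Slc22a8 TPM was 0.171, 0.155 and 0.0367 in the PTS1 mice. In the PTS2 mice it was 22.8, 13.8, 14.3, 16.4 and 25.3. No PTS1 mouse came near a PTS2 mouse. Both transcripts were near 0 in PTS3, so no ratio is given there.

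Slc22a7 (ENSMUSG00000067144), the gene of Oat2, was the most abundant of the 9. Its PTS2 mice had 2380, 2352, 2791, 2223 and 2595 TPM, its PTS3 mice 1687, 1282 and 1410 TPM, and its PTS1 mice 6.19, 0.05 and 0.05 TPM. The PTS2 mice lay above the PTS3 mice without overlap, but the difference of 0.76 (SE 0.40, adjusted p 0.321, limma) did not pass. PTS1 was the lowest part, and PTS1 minus PTS2 was -10.59 (SE 0.40, adjusted p 1.96e-25, limma). DTL1 came next with 49.6, 20.9 and 5.81 TPM.

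Slc22a13 (ENSMUSG00000074028), whose product Oat10 carries nicotinate and urate, and Slc22a19 (ENSMUSG00000024757), whose product Oat5 carries sulfated steroids, were high in both straight parts. Slc22a13 had 347, 481, 506, 515 and 492 TPM in the PTS2 mice, 468, 406 and 397 TPM in the PTS3 mice and 1.31, 0.62 and 0.19 TPM in the PTS1 mice. Slc22a19 had 530, 479, 545, 530 and 635 TPM in PTS2, 618, 425 and 529 TPM in PTS3 and 1.3, 0.145 and 0.12 TPM in PTS1. For both genes the PTS2 and PTS3 mice overlapped and the PTS1 mice lay far below. The PTS2 minus PTS3 difference was 0.13 (SE 0.34, adjusted p 1, limma) for Slc22a13 and 0.07 (SE 0.36, adjusted p 1) for Slc22a19, and both turned below 0 under median ratio rescaling, at -0.03 and -0.09. The PTS1 minus PTS2 difference was -8.16 (SE 0.34, adjusted p 5.91e-24, limma) for Slc22a13 and -8.63 (SE 0.36, adjusted p 9.46e-24) for Slc22a19. Of the 50-base stretches of the GENCODE M21 transcripts of Slc22a13, 36% also occur in Slc22a13b-ps, so how reads were shared between gene and pseudogene is uncertain; for Slc22a19 the share with other genes was 0.985%.

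Slc22a30 (ENSMUSG00000052562), a rodent member of the family with little functional description, was the only Slc22a gene of the 9 with its highest mean in PTS3. Its PTS3 mice had 300.4, 240.0 and 267 TPM, its PTS2 mice 145, 154, 90.3, 185 and 158 TPM, and its PTS1 mice 40.2, 48.9 and 13.9 TPM. The 3 parts did not overlap and rose in order along the tubule. Between the first 2 parts, PTS1 minus PTS2 was -2.17 (SE 0.38, adjusted p 1.63e-05, limma). The PTS2 minus PTS3 difference of -0.93 (SE 0.38, adjusted p 0.127, limma) did not pass, but did under median ratio rescaling (-1.09, adjusted p 0.0411). How its reads were assigned is uncertain, since 34.3% of the 50-base stretches of its transcripts occur in other genes, 31% in Slc22a28.

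Slco1a1 (ENSMUSG00000041698) encodes Oatp1a1, a carrier of steroid conjugates and bile salts. The PTS2 mice had 487, 351, 325, 321 and 387 TPM, the PTS3 mice 50.9, 28.4 and 39.3 TPM and the PTS1 mice 7.38, 0.05 and 0.05 TPM. All PTS2 mice were above every PTS3 mouse, and all PTS3 mice above every PTS1 mouse. PTS2 exceeded PTS3 by 3.37 (SE 0.39, adjusted p 7.14e-09, limma), which was also its smallest margin over any group (intersection-union adjusted p 4.96e-08). The difference PTS1 minus PTS3 was -4.42 (SE 0.44, adjusted p 2.41e-11, limma), and -6.66 or -2.66 with pseudocounts of 0.1 and 5.

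Slco1a6 (ENSMUSG00000079262), a kidney member of the same family on chromosome 6, was separated from Slco1a1 in RefSeq by 1 protein-coding gene. Its PTS2 mice had 232, 207, 187, 151 and 191 TPM, its PTS1 mice 104, 50.3 and 25.9 TPM and its PTS3 mice 67.1, 51.0 and 44.3 TPM. The PTS2 mice were above all others, and the PTS1 and PTS3 mice overlapped. PTS1 minus PTS2 was -1.86 (SE 0.36, adjusted p 6.01e-05, limma). PTS2 exceeded PTS3 by 1.82 (SE 0.36, adjusted p 0.000155, limma), which was also its smallest margin (intersection-union adjusted p 0.00145). Without PTS1 mouse 3 the margin was 1.38 (limma adjusted p 0.0956), and with a pseudocount of 0.1 the difference from PTS3 was 1.83 (adjusted p 0.1), so the call rests on those choices. The PTS1 minus PTS3 difference was -0.04 (SE 0.40, adjusted p 1, limma). Slco1a1 and Slco1a6 both had their highest mean in PTS2, and in PTS1 Slco1a6 stood at 60.0 ± 39.8 TPM and Slco1a1 at 2.5 ± 4.23 TPM. The genes on either side of this pair, Slco1a4 and Slco1a5, had their highest means in DTL1, at 16.1 and 2.41 TPM. Neither was called highest there, with margins of 0.85 and 0.86 over DTL2. DTL1 was also high in receptor genes and endothelial markers, whose part in these levels was not tested.

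Slco4c1 (ENSMUSG00000040693) encodes Oatp4c1, which carries digoxin and thyroid hormones. It was the least abundant of the 9 in PTS2, at 20.3, 23.4, 31.0, 30.6 and 30.6 TPM, and had 28.7, 29.5 and 34.2 TPM in PTS3 and 0.07, 0.08 and 0.06 TPM in PTS1. PTS2 and PTS3 overlapped, and PTS1 lay far below, with PTS1 minus PTS2 at -4.68 (SE 0.23, adjusted p 2.64e-21, limma), or -7.30 and -2.64 with pseudocounts of 0.1 and 5. The PTS2 minus PTS3 difference was -0.19 (SE 0.23, adjusted p 1, limma).

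Slco4c1 was also the only 1 of the 9 with a steady level in the connecting tubule and collecting duct. The CNT mice had 5.11, 5.30 and 4.33 TPM, the CCD mice 7.90, 6.69, 5.06, 4.73 and 7.88 TPM and the OMCD mice 11.4, 5.82, 6.39 and 8.74 TPM. CCD overlapped with CNT and with OMCD, every OMCD mouse was above every CNT mouse, and all 3 groups overlapped with DTL1 (8.32, 2.96 and 2.22 TPM). In the segments on either side it was close to 0, at 0.059 ± 0.043 TPM in CTAL, 0.028 ± 0.008 TPM in DCT and 0.011 ± 0.010 TPM in IMCD, and MTAL was listed at 0 in all 3 mice. As a percentage of its PTS3 mean, Slco4c1 was at 15.95% in CNT, 20.9% in CCD and 26.3% in OMCD. The other 6 transporters with a PTS3 mean of at least 10 TPM were at most at 1.44% in these groups. Of 10 proximal markers in OMCD, the highest was Cyp7b1 at 6.07% and the median was 0.341%. The marker median was 0.59% in CCD and 0.388% in CNT, and the highest marker in both was Slc34a1. The phosphate transporter Slc34a1 varied widely between mice there, from 7.89 to 47.65 TPM in CCD (median 10.67) and from 2.63 to 17.71 TPM in CNT (median 4.12), and was at 0.17 to 0.69 TPM in OMCD. The PTS1 mean of this gene was 9502 TPM and the PTS3 mean 44.2 TPM, so its percentages of PTS3 rest on a low reference. They were 42.63% in CCD and 18.45% in CNT, both above those of Slco4c1, and 0.953% in OMCD. Cyp7b1, a steroid hydroxylase, had 37.1 ± 4.7 TPM in CNT, 63.6 ± 3.1 TPM in CCD and 64.9 ± 10.4 TPM in OMCD, so it too was present there.

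In DTL1, 7 of the 9 transporters were found at a small share of their PTS3 level, while Slc22a6 (2.19 against 1.45 TPM) and Slc22a8 (2.85 against 0.0017 TPM) had higher means in DTL1 than in PTS3. The Slc22a6 mice overlapped, with 1.03 to 3.88 TPM in DTL1 and 1.18 to 1.91 TPM in PTS3. The 7 genes with a PTS3 mean of at least 10 TPM ranged from 1.74% (Slc22a7) to 18.6% (Slco1a1), with a median of 7.68%, and the 10 proximal markers from 3.18% to 20.4%, with a median of 8.15%. The 9 transporters summed to between 34.98 and 174 TPM in the DTL1 mice, and the 8 general proximal markers to between 525.6 and 1031 TPM. The part of adjoining proximal cells in these levels was not tested.

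**Figure D4:**
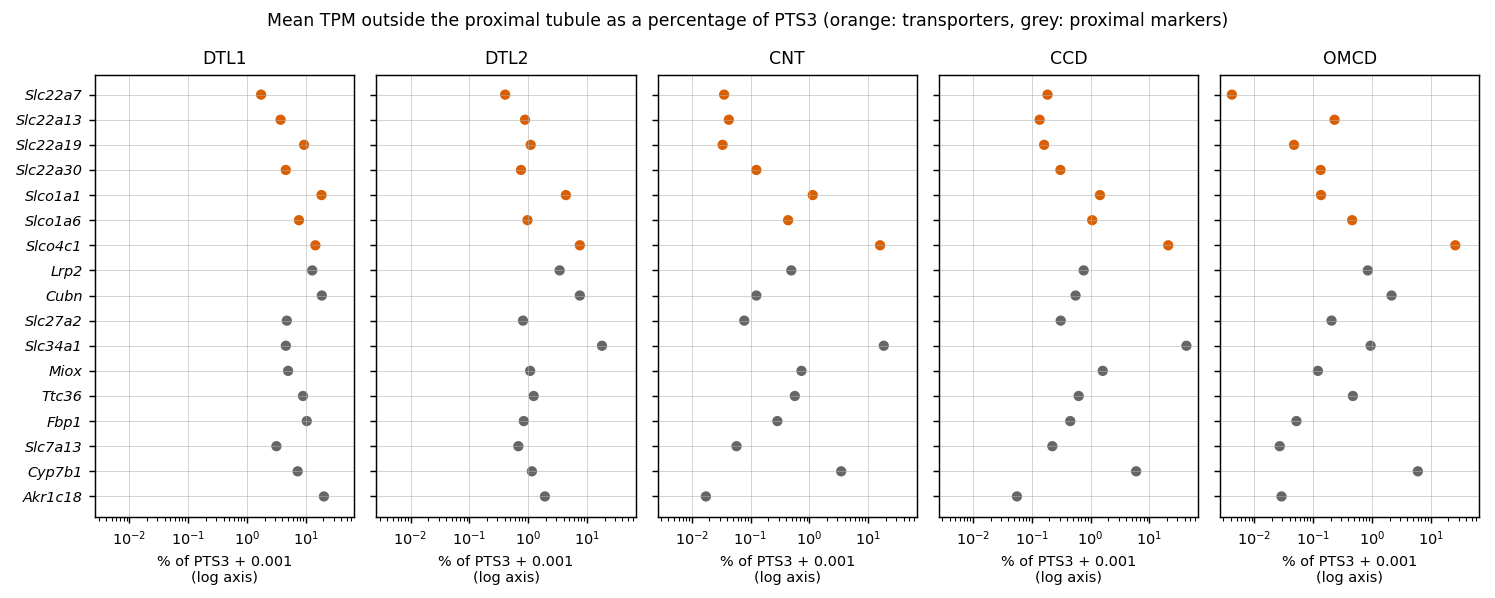
Mean TPM in DTL1, DTL2, CNT, CCD and OMCD as a percentage of the PTS3 mean plus 0.001, log axis, for 7 transporters (orange) and 10 proximal markers (grey). In DTL1 the transporters lie at 1.74% to 18.6% and the markers at 3.18% to 20.4%, and in OMCD Slco4c1 lies at 26.3%, to the right of the markers. The marker Slc34a1 lies to the right of Slco4c1 in CCD (42.63% against 20.94%) and in CNT (18.45% against 15.95%).

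Within PTS1, 1 piece carried some transcripts that were high in the straight parts. The second piece of PTS1 mouse 1 had 12.4 TPM of Slc22a7, 14.7 TPM of Slco1a1, 2.45 TPM of Slc22a19 and 2.08 TPM of Slc22a13. The first piece of that mouse had 0 TPM of Slc22a7 and 0.12, 0.15 and 0.53 TPM of the other genes. Slc7a13 was at 27.1 TPM in the second piece against 0.40 TPM in the first, but the other markers of the proximal end were low in both, Cyp7b1 at 0.67 and 0.21 TPM and Akr1c18 at 0.2 and 0.14 TPM. Slco4c1 was at 0.05 and 0.09 TPM and Slc5a2 at 2794 and 2727 TPM in the same order. Without that piece PTS1 differed from PTS2 for 9 of 9 genes in the same directions, where 4.85% of all genes were called higher and 5.14% lower. In PTS1 mouse 3, the only PTS1 mouse with a single piece, Slc22a6, Slc22a30 and Slco1a6 were each at their PTS1 minimum, and Slc22a8 was between the values of the other mice.

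Pieces of the same mouse gave a measure of the spread within a mouse. In PTS2, the higher of 2 pieces exceeded the lower by a median of 1.51 times for Slc22a6, 1.70 times for Slc22a8 and 1.39 times for Slc22a7 (3 mice each). The first piece was above the second for Slc22a6 and Slc22a8 in all 3 mice, and below it for Slc22a7. These ratios thus hold a difference of 1 direction between pieces. The ratio of the highest to the lowest mouse in PTS2 was 1.73 for Slc22a6, 2.40 for Slc22a8 and 1.25 for Slc22a7. In PTS1, 4 genes were above 1 TPM in every piece, and for these the median ratio of pieces was 1.59 for Slc22a6, 1.11 for Slc22a8, 1.18 for Slc22a30 and 1.06 for Slco1a6 (2 mice each). The ratio of the highest to the lowest PTS1 mouse was 5.13, 1.52, 3.53 and 4 in the same order.

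Genes with the most similar profile were found by Pearson's r of the 15 group means of log2(TPM + 1) among 12144 genes, as a description over 15 points that share the same libraries. For Slc22a6 they were Ugt2b37 (r = 0.986), Cyp2e1 (0.978) and Cyp4a12b (0.975). For Slc22a8 they were Acnat2 (0.994), Cyp2d12 (0.993) and Slc16a14 (0.987). Slc22a7 was closest to Cyp2a4 (0.997), Slc22a13 to Mfsd2a (0.997), Slc22a19 to Mep1b (0.999) and Slc22a30 to Slc17a3 (0.991). Slco1a1 was closest to Slc5a10 (0.988), Slco1a6 to Slc28a1 (0.995) and Slco4c1 to Cyp7b1 (0.970), the hydroxylase that was likewise present in the collecting duct. Ugt2b37 had 13.4, 413 and 1.29 TPM in PTS1, PTS2 and PTS3, the order of Slc22a6. Acnat2 had 56.3, 14.6 and 0.005 TPM, the order of Slc22a8. Among the 9 genes themselves r ran from 0.063 (Slc22a8 with Slco4c1) to 0.986 (Slc22a13 with Slc22a19).

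The sodium-dicarboxylate carriers supply the counter-ion for Oat1 and Oat3. Slc13a3, the basolateral NaDC3, had 224 ± 40 TPM in PTS2, 6.57 ± 2.68 TPM in PTS1 and was listed at 0 in all 3 PTS3 mice. Its PTS2 mice (174 to 284 TPM) lay above its PTS1 mice (3.65 to 8.91 TPM), and PTS1 minus PTS2 was -4.94 (SE 0.38, adjusted p 8.62e-15, limma). The order of the 3 parts was that of Slc22a6, and r with Slc22a6 over the 15 groups was 0.824. Slc13a2, the NaDC1 of the brush border, had 12.6 ± 9.7 TPM in PTS1, 138 ± 22 TPM in PTS2 and 89.7 ± 5.2 TPM in PTS3. Both were called lower in PTS1 than in PTS2 (2 of 2 genes, against 5.1% of all genes). Only Slc13a3 was called higher in PTS2 than in PTS3 (7.78, SE 0.38, adjusted p 1.19e-20, limma), where 3.94% of all genes were. NaDC1 was thus the carrier with values above 0 in PTS3.

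Of the 6 other Slc22a genes of the anion branch, 4 passed the filter on low values (Slc22a12, Slc22a26, Slc22a28 and Slc22a29). These 4 were called higher in the proximal groups than in the other tubule, where 4.02% of all genes were. A gene can pass the filter through its proximal mice alone, so this count is no test of the list. Slc22a12, the urate transporter of the brush border, had 114 ± 58 TPM in PTS1, 1185 ± 188 TPM in PTS2 and 697 ± 31 TPM in PTS3. Slc22a26 had 0.12 ± 0.09, 45.8 ± 11.6 and 31.1 ± 5.1 TPM in the same order. Both were called lower in PTS1 than in PTS2, where 5.1% of all genes were. Slc22a29 had 40.4 ± 4.8 TPM in PTS1 and 0.828 ± 0.128 TPM in PTS2, and its PTS1 level exceeded every other group by at least 4.51 (SE 0.21, intersection-union adjusted p 3e-20, limma). Slc22a28, which shares stretches with Slc22a30, had 118 ± 57, 111 ± 25 and 166 ± 32 TPM and was not called between any proximal parts. In RefSeq, Slc22a26 follows Slc22a19 directly, and Slc22a29 precedes Slc22a30.

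The 9 other Slco genes passed the filter, and 1 (Slco2b1) was called higher and 1 (Slco4a1) lower in the proximal groups than in the other tubule. The shares of all genes were 4.02% higher and 19.8% lower. Slco3a1 had 6.33 ± 4.70 TPM in PTS1, 439 ± 43 TPM in PTS2 and 169 ± 10 TPM in PTS3, and its PTS2 level exceeded every other group by 1.38 or more (SE 0.29, intersection-union adjusted p 0.00353, limma). Slco2a1, a prostaglandin transporter, had its highest mean in GL at 256 TPM, against 16.2 ± 2.7 TPM in PTS2. Slco4a1 had 1284 ± 448 TPM in IMCD and at most 0.545 TPM in any proximal mouse. Of this list, 4 of 9 genes were called lower in PTS1 than in PTS2 (5.1% of all genes) and 4 of 9 higher in PTS2 than in PTS3 (3.94%).

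Of 5 exporters of the brush border, 4 were called higher in the proximal groups (Abcc2, Abcg2, Slc17a1 and Slc17a3) and 1, Abcc4, was lower. Of all genes, 4.02% were called higher and 19.8% lower. Abcc2 had 58.8 ± 13.6, 63.9 ± 8.5 and 79.7 ± 10.1 TPM in PTS1, PTS2 and PTS3. Slc17a1 had 483 ± 75, 905 ± 84 and 754 ± 135 TPM, and neither gene was called between any of these parts. Slc17a3 was lower in PTS1 than in PTS2, at 146 ± 54 against 1249 ± 96 TPM (log2 difference -3.16, SE 0.43, adjusted p 8.89e-08, limma). Abcc4 had 13.4 ± 3.1 TPM in PTS1, 0.362 ± 0.105 TPM in PTS2 and 0.243 ± 0.287 TPM in PTS3, and PTS1 exceeded PTS2 by 3.38 (SE 0.22, adjusted p 9.55e-17, limma). Its highest mean was in IMCD, at 141 ± 55 TPM. Among the proximal parts, PTS1 thus had the most of both Slc22a8 and Abcc4, while their r over the 15 groups was -0.296.

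Of the 4 basolateral ABC exporters, Abcc6 was called higher and Abcc1, Abcc3 and Abcc5 lower in the proximal groups than in the other tubule. Among all genes these calls were made for 4.02% and 19.8%. Abcc6 had 5.84 ± 0.99, 10.8 ± 2.3 and 7.13 ± 3.65 TPM in PTS1, PTS2 and PTS3. Abcc5 was the only one called between PTS1 and PTS2, at 22.4 ± 3.5 against 10.3 ± 1.8 TPM (1.05, SE 0.22, adjusted p 0.000176, limma). Of all genes, 4.46% were called higher in PTS1.

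Hnf4a encodes a factor known to act on promoters of proximal genes, and Pdzk1 a scaffold of the brush border. Both were called higher in the proximal groups than in the other tubule (2 of 2 genes, against 4.02% of all genes). Hnf4a had 78.0 ± 14.3, 142 ± 15 and 113 ± 14 TPM in PTS1, PTS2 and PTS3. It was not called between proximal parts, although its PTS1 minus PTS2 difference of -0.87 (SE 0.28, limma) had an adjusted p of 0.0201. Pdzk1 had 1557 ± 89, 1994 ± 123 and 1456 ± 159 TPM and was not called between any proximal parts. The part of Hnf4a in the levels of the transporters was not tested.

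**Figure D5:**
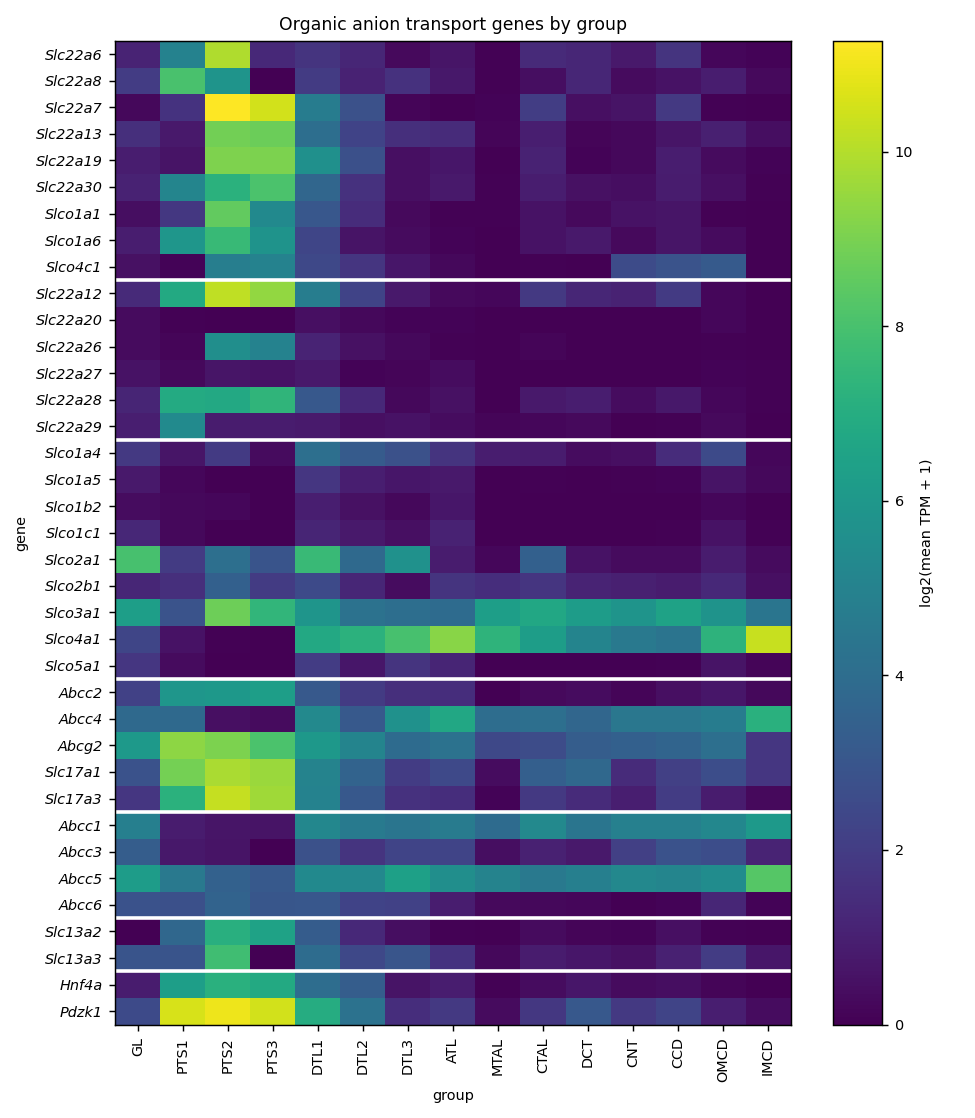
Colour shows log2(mean TPM + 1) of each gene (rows) in each of the 15 groups (columns). From the top, white lines separate the 9 transporters, other Slc22a genes, other Slco genes, brush border exporters, basolateral ABC exporters, dicarboxylate carriers, and Hnf4a with Pdzk1; Slc13a3 is bright in PTS2 and dark in PTS3, where it was listed at 0.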

How the data were processed

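The authors deposited a table of TPM for 54532 genes, made with STAR 2.5.4a and RSEM 1.3.0 among the tools in the submitters' processing notes. The genome build and annotation are not given in the sources used here. Per the labels' protocols, RNA was extracted with a Direct-zol kit, cDNA was made with the SMARTer V4 ultra-low input kit and libraries with Nextera XT. Tubule columns hold 2 decimals and glomerulus columns 1. TPM keep no depth, so no counting intervals are given. All 93 sample columns were used (0 left aside); 1 PTS2 column matched no sample title and entered as a PTS2 mouse without a number, and 3 single-cell samples were not analysed here.

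Pieces sharing a mouse number and segment were averaged as log2(TPM + 1) for the fit, which gave 53 mice in 15 groups. TPM given per mouse are plain means of its pieces. The study's count of 53 mice equals these combinations, so a number does not name the same mouse in different segments. Nothing further says how mice were drawn, so p-values measure the spread between these samples. Genes with at least 1 TPM in at least 3 mice (33793, all 9 transporters among them) were fitted with limma 3.58.1 in R 4.3.3 (lmFit, eBayes with trend), all groups sharing 1 estimate of the spread. Contrasts and the F-test were adjusted by Benjamini-Hochberg over all these genes, with a threshold of 0.05 and, for contrasts, a log2 difference of at least 1. The intersection-union test took the largest one-sided p of a group against each of the others. The fit was tested on simulated data first. Tables were made in Python 3.11.15 (pandas 2.3.3, numpy 2.4.6) and figures with matplotlib 3.10.9.

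The 9 transporters, the gene lists and the markers were chosen with earlier results of these data known. The genes named are these, listed pathway and marker genes, and the 3 genes with the most similar profile to each transporter, passing over predicted, mitochondrial, ribosomal and pseudogene names. Some listed genes and motifs are not reported here. Promoters came from RefSeq (GRCm38.p6) by symbol, and 8 of 9 matched. Shared 50-base stretches were counted in GENCODE M21 transcripts. The settings varied were the pseudocount (0.1 or 5), the filter (5 TPM or none), scaling (median ratio or quantile), how pieces were averaged, a block for the mouse number, the proximal groups alone, no trend, and leaving out each mouse, the unnumbered PTS2 column and, added after seeing the data, the second piece of PTS1 mouse 1.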

Additional observations from a re-analysis of the deposited data

Results flagged for a closer look

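In 44 combinations of a gene and a group of 4 or 5 mice with values above 0, 9 had a mouse far from the others by Dixon's criterion. Chance gives about 1 in 20 only for independent values with a normal spread. The criterion was applied to plain TPM, and most flagged values were near 0, where that rate need not hold. The combinations also share libraries, and several of the 9 name the same mouse. The only 1 in a proximal group was Slc22a13 in PTS2, where mouse 1 had 346.8 TPM and the rest 481 to 515 TPM. Mouse 1 had only a first piece. In mice 3, 4 and 5 the first piece was below the second (390 against 572, 470 against 543 and 420 against 610 TPM). The flag thus sets a first piece against means over 2 pieces and the unnumbered column. All the other flagged values were at low levels. In ATL, Slc22a8 was at 2.19 TPM in mouse 6 (0 to 0.32 TPM in the others), Slc22a30 at 2.6 TPM in mouse 4 (0 to 0.17 TPM) and Slco1a1 at 0.21 TPM in mouse 4 (0 to 0.01 TPM). In CCD, Slc22a8 was at 1.03 TPM in mouse 4 (0.2 to 0.37 TPM), and mouse 3 had 5.39 TPM of Slc22a7 (1.58 to 2.66 TPM) and 2.66 TPM of Slc22a19 (0.16 to 0.65 TPM). In OMCD, mouse 1 had 0.185 TPM of Slc22a7, which was listed at 0 in the others, and 0.405 TPM of Slc22a19 (0.17 to 0.205 TPM). Where all other mice are at 0, as for Slc22a7 here, any value above 0 is flagged.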

How the results depend on the processing

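Over the alternatives, 3514 values of single transporters kept their direction and side of the threshold, 18 changed sign, 4 lost and 1 gained the call. All sign changes were of differences that were not called. The PTS2 minus PTS3 difference, which is also the PTS2 margin, of Slc22a13 was -0.029 under median ratio rescaling and -0.1007 under quantile normalization, and that of Slc22a19 -0.0912 and -0.1376. Slco1a6 PTS1 minus PTS3 was 0.0932 with the mouse as random block and 0.1507 with pieces as independent. Leaving out single mice, this ran from -0.5402 to 0.4397, and PTS2 minus PTS3 of Slc22a19 from -0.0785 to 0.1957. The Slco1a6 margin of PTS2 ran from 1.38 to 1.90 and lost the call only without PTS1 mouse 3. With a pseudocount of 0.1, 2 of 9 transporters had a single highest group against 4, and the genes called were 8926, 2640, 8631 and 16746 for PTS1 minus PTS2, PTS2 minus PTS3, PTS1 minus PTS3 and proximal minus other tubule, and 110, 44 and 8 for PTS1, PTS2 and PTS3 as the highest group. The main counts were 3233, 1588, 3417, 8041, 184, 87 and 34. With a pseudocount of 5 the first 4 were 1811, 763, 1813 and 4325. A filter at 5 TPM, which tests fewer genes, left 17910 of 31732 genes called by the F-test. Median ratio rescaling gave 288 genes for PTS1 and 105 for PTS3, and quantile normalization 4489 for proximal minus other tubule and 284, 57 and 99 for PTS1, PTS2 and PTS3. Other causes were not tested. Leaving out single mice gave 3 or 4 transporters with a single highest group.

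Of 290 pairs of same-numbered mice of different segments, 19 had a correlation of deviations over 0.1, against 31 of 968 pairs of different number. Such correlations were thus more frequent among same-numbered pairs, while both medians were near 0 (0.000185 and 0.000366). The numbers were not taken to pair the samples, since the study's count of 53 mice equals the combinations of number and segment. With the number as a replicate block, PTS1 minus PTS2 gave 3542 genes, all 9 transporters among them, and PTS2 minus PTS3 turned to -0.0072 for Slc22a13 and -0.0777 for Slc22a19. TPM leave the depth unknown, so values near 0 cannot be told from a lack of reads.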
